A study of Mus musculus with 1824 samples.

Results

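Epithelial-mesenchymal transition (EMT) is the conversion of attached, polarised cells into cells that detach and migrate. In the gastrulating mouse embryo it takes place at the primitive streak, where epiblast cells lose the adhesion molecule E-cadherin, gain N-cadherin and leave as mesoderm. The transcription factor *Snai1* is required for this step and represses the E-cadherin gene. A set of EMT genes was followed through single cells at this stage of development. Their adhesion genes were *Cdh1* (E-cadherin), *Epcam* (an epithelial cell adhesion molecule), *Cldn6* (a tight junction claudin) and *Cdh2* (N-cadherin). *Vim* encodes vimentin, the intermediate filament of mesenchymal cells. *Snai1*, *Snai2*, *Twist1*, *Zeb1* and *Zeb2* encode EMT transcription factors. These members were taken by symbol from the count table, 10 of its 55487 genes, and each was found.

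The cells came from chimaeras made by injecting H2B-tdTomato mouse embryonic stem cells that lack *Tet1*, *Tet2* and *Tet3* (TKO, triple knockout) into C57BL/6J blastocysts, and the labels give the strain as CD1, the recipient mothers. Embryos were collected at embryonic day 7.5 (E7.5) or 8.5 (E8.5), and each embryo held both TKO and host cells. Cells were sorted into 96-well plates with antibodies to KDR, a receptor of blood and endothelial precursors, and to CD41, and sequenced by Smart-seq2, a full-length RNA method without molecular identifiers. The labels of single cells give neither genotype nor sort gate, so TKO and host cells were not compared, and each share below describes the sorted wells rather than the embryo.

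Of 1824 wells, 1649 held at least 100000 reads and were used. They comprised 956 cells on 11 E7.5 plates and 693 cells on 8 E8.5 plates, with a median of 670090 reads per cell (range 100941 to 6162793). Plate medians ranged from 224956 to 1699478 reads. Only 4 E7.5 plates name an animal (embryos 1, 2, 4 and 5), and these served as the replicates. Each embryo was on 1 plate, so embryo and plate cannot be told apart. The other E7.5 plates were a chimaera plate and lane plates 1 to 6, and no E8.5 plate names an animal.

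Levels are given as CPM, the reads of a gene in each 1000000 reads, and a cell was counted as positive for a gene at 10 CPM or more. To place the members along differentiation, each cell was put in the first class that applied: *Mesp1*-positive, *T*-positive, *Kdr*-positive or *Pou5f1*-positive, with the remainder in none. *Pou5f1* marks epiblast, *T* (Brachyury) the primitive streak and *Mesp1* newly formed mesoderm. At E7.5 these classes held 117 *Pou5f1*, 193 *T*, 275 *Mesp1*, 201 *Kdr* and 170 other cells. Classes are ranges of expression rather than cell types: between 5 and 20 CPM, close to the threshold, lay 41 E7.5 cells for *Pou5f1*, 74 for *T*, 24 for *Mesp1* and 63 for *Kdr*. Other markers followed the class names. The sum of 9 epiblast genes had a median of 6427 CPM in the *Pou5f1* class and 615 CPM in the *Mesp1* class, and the sum of 9 nascent mesoderm genes was 34.8 and 1634 CPM in the same order. These sums include the genes that define the classes.

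On the genome build GRCm38, *Cdh1* (ENSMUSG00000000303) spans chr8:106603351-106670246, *Epcam* (ENSMUSG00000045394) chr17:87635979-87651129 and *Cldn6* (ENSMUSG00000023906) chr17:23679249-23682446, each on the plus strand. *Snai1* (ENSMUSG00000042821) spans chr2:167538195-167542814 and *Vim* (ENSMUSG00000026728) chr2:13573927-13582826, both on the plus strand. Reads were counted over exons. Snail and Zeb factors bind the E-box CAGGTG, which was searched on both strands. Promoter sequence from RefSeq on GRCm38 was found for 6 of the members. *Cdh1*, *Cdh2*, *Snai2* and *Zeb1* had no entry, so their promoters were not searched. The window ran from 250 bases before to 50 bases after the start site, and the motif was present in 3 of them, *Epcam*, *Snai1* and *Cldn6*, against 20.3% of 32544 promoters of the same length. The 250 bases before *Epcam*, an epithelial member, and before *Snai1*, the factor called in the comparison that follows, are shown on the plus strand with the motif in capitals.

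Epcam, chr17:87635729-87635978: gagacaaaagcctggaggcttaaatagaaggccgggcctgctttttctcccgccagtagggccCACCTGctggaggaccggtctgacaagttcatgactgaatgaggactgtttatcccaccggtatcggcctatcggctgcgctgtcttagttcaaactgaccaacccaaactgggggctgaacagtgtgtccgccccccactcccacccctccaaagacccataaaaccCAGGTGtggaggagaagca

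Snai1, chr2:167537945-167538194: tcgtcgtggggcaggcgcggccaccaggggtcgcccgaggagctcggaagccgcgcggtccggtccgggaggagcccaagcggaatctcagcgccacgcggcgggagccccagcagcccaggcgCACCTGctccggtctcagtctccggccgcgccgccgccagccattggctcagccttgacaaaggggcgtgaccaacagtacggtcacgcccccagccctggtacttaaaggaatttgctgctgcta

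The *Epcam* motifs begin 187 and 19 bases before the start site, and 2 or more copies occur in 2.89% of promoters. The *Snai1* motif begins 126 bases before its start. A match describes the letters and is no measure of binding.

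Between *Pou5f1* and *Mesp1* cells at E7.5, the 3 epithelial adhesion members fell and *Snai1* rose. Reads were summed per embryo and class, and the classes were compared with edgeR's quasi-likelihood test with embryo as a block, at a false discovery rate of 1% and an absolute log2 fold change of at least 1. Pooled *Cdh1* was 329, 546, 379 and 429 CPM in the *Pou5f1* class of embryos 1, 2, 4 and 5, and 25.9, 50.7, 48.5 and 27.6 CPM in their *Mesp1* class. Every *Mesp1* value lay far under every *Pou5f1* value, and the log2 fold change was -3.48 (SE 0.203, edgeR adjusted p = 5.81e-05). *Cldn6* was 376, 491, 926 and 1003 CPM in the *Pou5f1* class and 13.5, 40.3, 24.4 and 29.8 CPM in the *Mesp1* class. This claudin had the largest fold of the adhesion members, with a log2 change of -4.67 (SE 0.255, edgeR adjusted p = 4.18e-05). *Epcam* was 625, 618, 506 and 447 CPM against 100, 120, 145 and 102 CPM, a log2 change of -2.22 (SE 0.161, edgeR adjusted p = 0.000228). Its *Mesp1* levels stayed above those of *Cdh1* and *Cldn6* in each of the embryos, also per kilobase of exon.

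*Snai1* was 2.39, 4.87, 1.64 and 26.3 CPM in the *Pou5f1* class and 96.8, 134, 76.4 and 88.9 CPM in the *Mesp1* class. The groups did not overlap, although embryo 5 stood above the other embryos in the *Pou5f1* class, and the log2 change was 4.24 (SE 0.617, edgeR adjusted p = 0.00754). In background, 48 of 17810 genes tested (0.27%) were called higher and 98 (0.55%) lower in the *Mesp1* class, beside 1 and 3 of the 10 members. Ordered by p among the 146 called genes, *Cldn6* stood at 3, *Cdh1* at 4, *Epcam* at 8 and *Snai1* at 113. The genes called higher include *Mesp1*, *Kdr* and *T*, which the class rule keeps low in the *Pou5f1* class. *Mesp1* and *Kdr* stood ahead of *Cldn6* in this order. The *Snai1* call was lost, by edgeR, without embryo 1, 2 or 4 (adjusted p = 0.0675, 0.0935 and 0.0487), and *Epcam* was just past the limit without embryo 1 (adjusted p = 0.0107).

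The other mesenchymal members did not pass the edgeR test. *Cdh2*, *Twist1*, *Zeb1* and *Zeb2* had separate ranges, but the share of all genes with separate ranges was not computed. Nothing is therefore concluded from separate ranges, here or for *Snai1* and the adhesion members above. DESeq2, which called 436 genes higher, called *Cdh2*, *Vim*, *Twist1*, *Zeb1* and *Zeb2* as well (DESeq2 adjusted p = 2.83e-06 for *Zeb1* and 0.00761 for *Vim*) and not *Snai2*. *Cdh2* was 24.3, 20.7, 16.1 and 131 CPM in the *Pou5f1* class of embryos 1, 2, 4 and 5 and 226, 371, 309 and 255 CPM in the *Mesp1* class (log2 2.95, SE 0.697, edgeR adjusted p = 0.0597). *Zeb2* was 1.83, 4.91, 5.996 and 30.3 CPM against 62.6, 68.5, 64.4 and 106 CPM (log2 3.33, SE 0.655, edgeR adjusted p = 0.0296). In both genes embryo 5, with 5 *Pou5f1* cells, was the highest of its class. *Zeb1* was 0.160, 2.73, 0 and 0.505 CPM against 8.84, 20.02, 20.3 and 29.6 CPM (log2 4.76, SE 1.016, edgeR adjusted p = 0.0406), so its fitted fold rests on a few reads in the *Pou5f1* class. *Twist1* reached at most 2.06 CPM in the *Pou5f1* class and lay between 5.34 and 11.7 CPM in the *Mesp1* class (log2 2.72, SE 0.622, edgeR adjusted p = 0.0534). *Vim* and *Snai2* overlapped between the classes, with log2 values of 1.59 (SE 0.479) and 1.43 (SE 2.503). *Vim* was 28.7, 47.6, 18.8 and 94.9 CPM against 88.7, 108, 155 and 158 CPM. *Snai2* stayed at or below 5.05 CPM in every one of these sums.

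**Figure D1:**
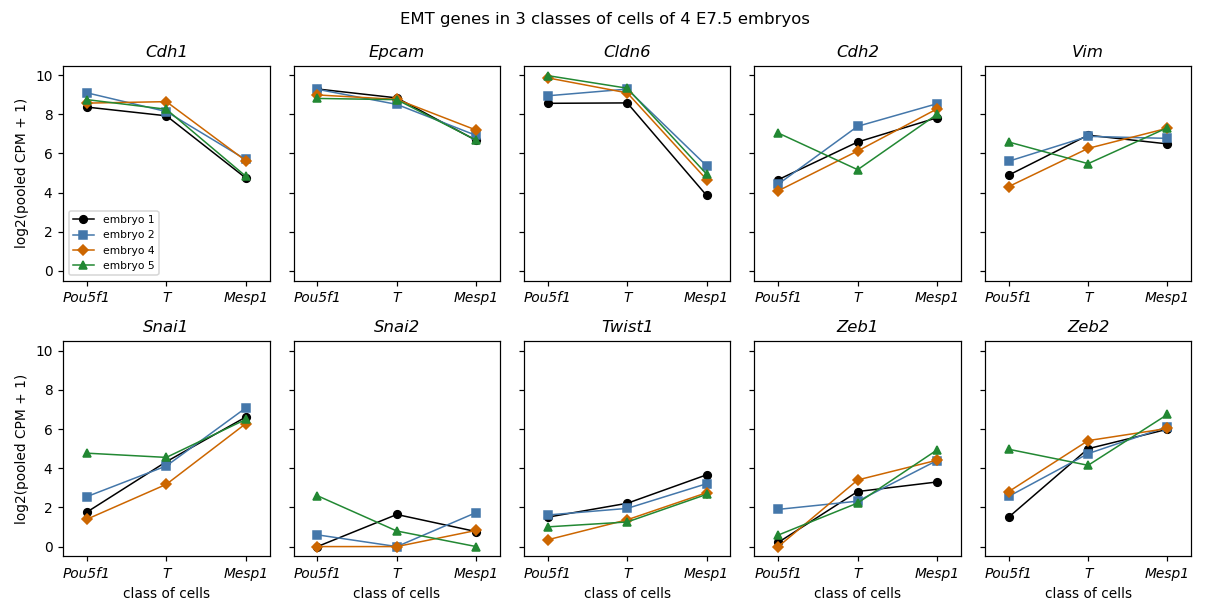
Each panel plots the pooled level of 1 member, on a log2(CPM + 1) axis, in the *Pou5f1*, *T* and *Mesp1* classes at E7.5, with 1 point per named embryo. *Cdh1*, *Epcam* and *Cldn6* were lower in the *Mesp1* class than in both other classes in every embryo, and the *Snai1* points of the *Mesp1* class lay between 76.4 and 134 CPM.

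Cells of the other plates gave the same directions, except for *Zeb1* on 1 plate. On 8 E7.5 plates with at least 5 cells of both classes, 4 of them not the named embryos, *Cdh1*, *Epcam* and *Cldn6* were lower in *Mesp1* than in *Pou5f1* cells on 8 of 8. The median log2 ratios within plates, with 1 CPM added to both sides, were -2.93, -2.24 and -4.14. *Cdh2*, *Vim*, *Snai1*, *Twist1* and *Zeb2* were higher on 8 of 8 plates, and *Zeb1* and *Snai2* on 7. These counts include the embryos tested above. On the 4 other plates alone, *Cdh1*, *Epcam* and *Cldn6* were lower on 4 of 4, with medians of -1.87, -2.33 and -3.29. There *Zeb1* was higher on 3 and lower on 1, while *Cdh2*, *Vim*, *Snai1*, *Snai2*, *Twist1* and *Zeb2* were higher on 4 of 4. In single cells, *Snai1* was positive in 26.5% of *Pou5f1* cells and 88.4% of *Mesp1* cells, *Cdh2* in 35.9% and 91.3%, and *Cdh1* in 93.2% and 31.3%. *Epcam* was still positive in 67.6% of *Mesp1* cells, from 95.7% in the *Pou5f1* class. *Snai2* was seldom positive in either class, at 1.71% and 5.09%.

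Other epithelial genes were also called lower. Of 34 further epithelial genes, which were tested in full, 7 were called lower and 0 higher, 31 had a log2 value below 0, and the list median was -1.65, beside 0.09 over all genes tested. The largest falls were in *Ocln* (occludin of tight junctions, -8.23, edgeR adjusted p = 0.00319), *Crb3* (an apical polarity protein, -5.21, edgeR adjusted p = 0.00723) and *Cldn7* (another claudin, -4.55, edgeR adjusted p = 0.000479). Among 20 signals and factors of the streak, 4 were called higher and 0 lower with a list median of 3.24. *Mixl1* (6.22), *Bmp4* (5.37) and *Fgf8* (3.17) had the largest rises among the 4 called, a homeobox factor and secreted signals. Some uncalled genes of the list had values above that of *Fgf8*, as the median shows. Of 30 further mesenchymal genes, 27 were tested, 21 lay above 0, the median was 1.02 and 0 were called by edgeR, with 13 at an unadjusted p under 0.05. The 5 catenin genes, whose products link cadherins to the cytoskeleton, had a median of -0.20 and 0 calls, with 1 at an unadjusted p under 0.05. For background, of all 17810 genes tested by edgeR, 9942 lay above 0, 7868 lay below 0 and 2760 had an unadjusted p under 0.05.

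Between the *Pou5f1* and *T* classes no member was called by edgeR. *Cdh1* was 241, 281, 399 and 305 CPM in the *T* class of embryos 1, 2, 4 and 5, below its *Pou5f1* value in embryos 1, 2 and 5 and above it in embryo 4, and its log2 difference was -0.44 (SE 0.185, edgeR adjusted p = 0.512). *Epcam* was 456, 362, 433 and 428 CPM and *Cldn6* 382, 623, 545 and 643 CPM. The comparison called 0 of the 10 members, beside 2 genes higher (0.0112%), which were *T* and *Kdr*, both fixed by the class rule, and 0 genes lower (0%) by edgeR. At an unadjusted p under 0.05 there were 1694 genes, and DESeq2 called 208 higher and 112 lower. *Snai1* was 19.2, 16.4, 8.06 and 22.5 CPM in the *T* class. It was above the *Pou5f1* class in embryos 1, 2 and 4 and below it in embryo 5 (log2 1.495, SE 0.567, edgeR adjusted p = 0.472).

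Set against the *T* class, the *Mesp1* class was lower in the same adhesion genes. The log2 changes were -3.05 for *Cdh1* (SE 0.199, edgeR adjusted p = 0.00023), -1.85 for *Epcam* (SE 0.159, edgeR adjusted p = 0.00213) and -4.39 for *Cldn6* (SE 0.25, edgeR adjusted p = 9.43e-05). They made up 3 of 5 genes called lower (0.0281% of those tested). The remaining pair, *Cldn7* and *Grb7*, a signalling adaptor, changed by -4.01 and -3.22. *Mesp1* itself, which the class rule fixes, was the 1 gene called higher (0.00561%). Without 1 embryo *Epcam* was no longer called in any of the 4 cases (adjusted p = 0.0187 to 0.056), *Cdh1* not without embryo 1 or 5 (0.0182 and 0.015) and *Cldn6* not without embryo 5 (0.0146). With any read making a cell positive none of them was called (0.0104 to 0.0227), nor *Epcam* at 50 CPM (0.0143). *Snai1* had a log2 difference of 2.74 that missed the threshold (SE 0.542, edgeR adjusted p = 0.0745), and *Cdh2* had 1.67 (SE 0.624, edgeR adjusted p = 0.384).

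The *T* class held other cell types in some embryos, and endoderm markers were also present in the *Pou5f1* class. The sum of 10 extraembryonic ectoderm markers had medians of 25.5, 45.5, 2533 and 526 CPM in the *T* class of embryos 1, 2, 4 and 5, against 0.81 to 10.98 CPM in the *Pou5f1* class and 25.7 to 43.8 CPM in the *Mesp1* class. Extraembryonic ectoderm is itself an epithelium with *Cdh1*. After removal of cells with 100 CPM or more of these or of 12 endoderm markers, the *T* class of embryos 1, 2, 4 and 5 had 14, 9, 6 and 5 cells and *Cdh1* at 196, 217, 40.6 and 205 CPM. The *Mesp1* class then had *Cdh1* at 24.6, 45.1, 2.65 and 10.1 CPM. *Cdh1* was higher in the *T* class within each embryo, but the *T* value of embryo 4 lay below the *Mesp1* value of embryo 2, so the groups then overlapped. Without these cells *Cldn6* was called (log2 -4.04, edgeR adjusted p = 0.00124), while *Cdh1* (-3.23) and *Epcam* (-1.66) each had an adjusted p of 0.0104. The *Pou5f1* comparison could not be repeated in this way, since embryo 5 had 0 and embryo 4 had 3 such cells left. In embryos 1 and 2, where 9 and 12 *Pou5f1* cells were left, *Cdh1* was 337 and 564 CPM and *Snai1* 0.262 and 9.53 CPM. The endoderm sum was at 100 CPM or more in 5 of 16, 14 of 26, 3 of 6 and 4 of 5 *Pou5f1* cells of embryos 1, 2, 4 and 5. In the *Mesp1* class it was so in 1 of 45, 4 of 44, 1 of 12 and 4 of 18 cells. The part of endoderm cells in the differences between these classes was not tested.

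The shift from 1 cadherin to the other was seen cell by cell. In the *Pou5f1* class, 60.7% of cells were positive for *Cdh1* alone (71 of 117, Clopper-Pearson 95% interval 51.2 to 69.6%), 32.5% for both cadherins and 3.42% for *Cdh2* alone. In the *T* class the shares were 32.1%, 38.3% and 25.4%. In the *Mesp1* class they were 7.64%, 23.6% and 67.6% (186 of 275 for *Cdh2* alone, interval 61.8 to 73.1%). The pooled share with both was highest in the *T* class, but not in every embryo: in the *Pou5f1* class it was 56.3, 38.5, 33.3 and 40% in embryos 1, 2, 4 and 5, above the *T* share given below in embryos 4 and 5. Cells with neither made up 3.42%, 4.15% and 1.09% of the 3 classes. With the top 2% of cells by reads left out per plate, a set in which wells with more than 1 cell could lie, the share with both in the *T* class was 38.0% and in the *Mesp1* class 23.4%. The intervals cover counting error only and pool cells of different embryos. *Cdh2* alone held 66.7, 68.2, 58.3 and 77.8% of the *Mesp1* class in embryos 1, 2, 4 and 5, a narrow span. The share with both in the *T* class was 59.3, 57.1, 19.2 and 13.6%, so embryos 4 and 5 stood well below embryos 1 and 2, with the extraembryonic markers given above.

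**Figure D2:**
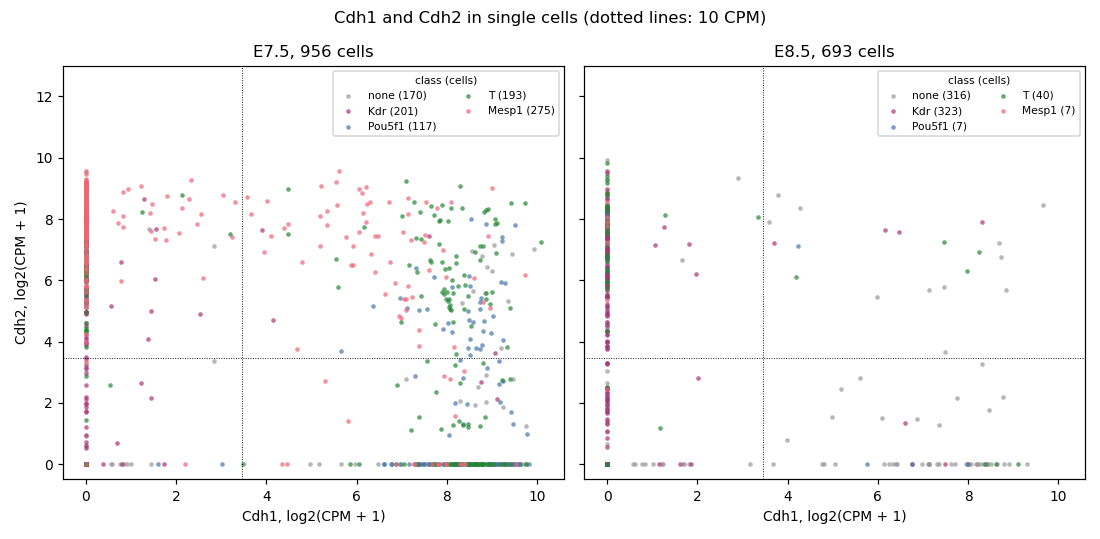
*Cdh1* (x) against *Cdh2* (y) in single cells at E7.5 and E8.5, both as log2(CPM + 1), with 1 point per cell, colours for the class and dotted lines at 10 CPM. *Mesp1* cells lie mainly along the *Cdh2* axis, *Pou5f1* cells at high *Cdh1*, and 193 of 956 E7.5 cells hold both cadherins.

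A per-cell cadherin balance was computed as the log2 ratio of *Cdh1* to *Cdh2*, each in CPM per kilobase of exon with 10 added. It averaged 2.61, 3.43, 2.93 and 1.71 in the *Pou5f1* class of embryos 1, 2, 4 and 5, and -1.21, -1.65, -1.27 and -1.44 in the *Mesp1* class. The sign therefore changed in all 4 embryos, with a mean difference of -4.07 ± 0.807 (SD, n = 4, exact permutation test, two-sided p = 0.125). In the *T* class the balance was 1.47, 0.77, 2.20 and 2.09. It was lower than in the *Pou5f1* class in 3 of 4 embryos (mean difference -1.04 ± 1.26, exact permutation p = 0.25). From *T* to *Mesp1* the mean difference was -3.03 ± 0.562 (exact permutation p = 0.125). With 4 embryos, 0.125 is the smallest p this test can give, so none of the 3 comparisons could reach 0.05.

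**Figure D3:**
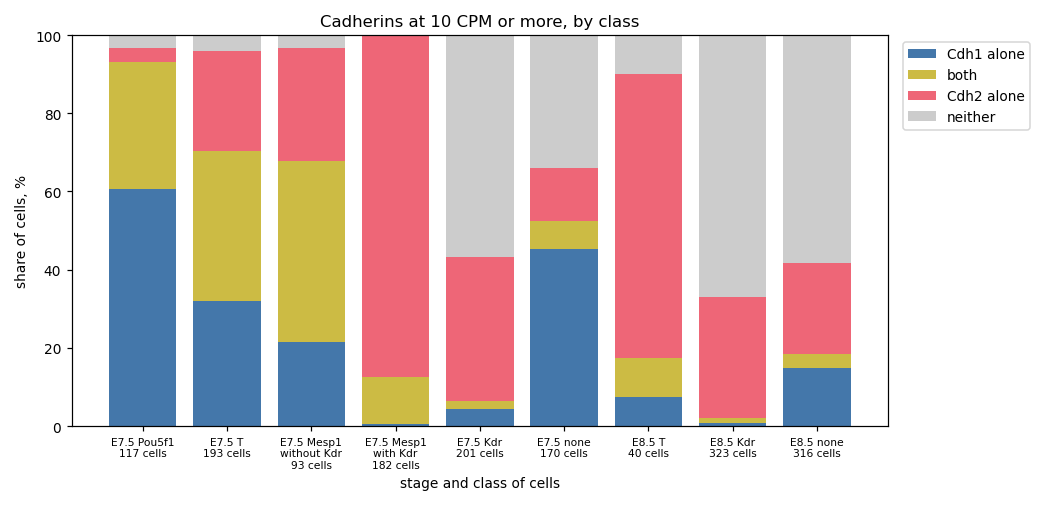
Share of cells (percent) positive for *Cdh1* alone, both cadherins, *Cdh2* alone or neither, as stacked bars per class and stage with cell numbers. At E7.5 *Cdh1* alone went from 60.7% to 7.64% between the *Pou5f1* and *Mesp1* classes and *Cdh2* alone went from 3.42% to 67.6%.

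Within the *Mesp1* class, *Cdh1* differed with *Kdr*, as did *Epcam* and *Cldn6*. This split was made after the values were seen and is a description. Among 182 *Mesp1* cells with *Kdr*, 87.4% had *Cdh2* alone and 0.55% *Cdh1* alone, whereas among 93 without *Kdr* the shares were 29.0% and 21.5%, and a further 46.2% held both. Pooled *Cdh1* was 7.6 CPM with and 153 CPM without *Kdr*, and *Cdh2* was 295 and 177 CPM. *Snai1*, in contrast, was 130 and 124 CPM. On the 5 plates with at least 5 cells of both kinds, *Cdh1* was 168, 84.0, 200, 87.4 and 186 CPM without *Kdr* on the chimaera plate, embryos 1 and 2 and lane plates 5 and 6. With *Kdr* it was 18.8, 3.71, 9.72, 1.82 and 6.53 CPM. The groups did not overlap, and the log2 ratios lay between -4.97 and -3.10. The share of all genes that separate in this way was not computed. *Cdh2* was higher with *Kdr* on 5 of 5 plates by 0.06 to 1.06, and *Snai1* was higher on 3 and lower on 2. *Epcam* and *Cldn6* were lower on 5 of 5 (median log2 ratios -1.49 and -3.72). *Zeb1* was higher on 5 of 5 (median 1.24) and *Zeb2* on 4 of 5 (median 0.20). *Vim*, *Snai2* and *Twist1* were each higher on 1 plate and lower on 4. Other markers moved with the split: the extraembryonic ectoderm sum was at 100 CPM or more in 48.4% of cells without *Kdr* and 19.2% with it, and the epiblast sum had medians of 1563 and 495 CPM. Their part in the *Cdh1* difference was not tested. Since KDR protein was used in the sort, the numbers of cells on each side depend on the gate.

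**Figure D4:**
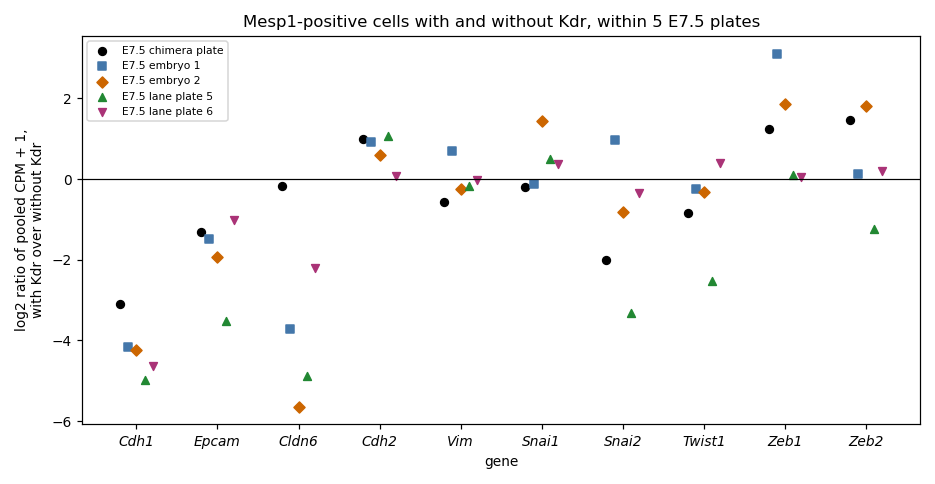
Log2 ratio of pooled CPM + 1 with *Kdr* over without *Kdr*, for each member in *Mesp1* cells. Each of 5 E7.5 plates has 1 marker per gene, and a line marks 0. The *Cdh1* markers all lie below 0, from -4.97 to -3.10. The *Epcam* and *Cldn6* markers also lie below 0. The *Cdh2* markers lie above 0, at up to 1.06, as do the *Zeb1* markers, and the *Snai1* markers lie on both sides.

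The *T* class also differed in its cadherin shares with *Pou5f1*, but not in the mean cadherin balance (1.19 with and 1.16 without). Of its cells, 128 were also *Pou5f1*-positive, and 52.3% of these held both cadherins, against 10.8% of the 65 without *Pou5f1*. The latter were split between *Cdh1* alone (44.6%) and *Cdh2* alone (36.9%). This subdivision too was not tested. The extraembryonic ectoderm sum had a median of 348.5 CPM without and 41.9 CPM with *Pou5f1*, with 58.5% and 27.3% of cells at 100 CPM or more. Endothelial markers, which include *Kdr*, reached that level in 38.5% and 14.1%. Endoderm markers did so in 18.5% and 42.2%. The part of these cells in the cadherin shares was not tested. Their *Vim* was 167 CPM, beside 91.5 CPM in the cells with *Pou5f1*, and their *Kdr* was 471 CPM, beside 87.6 CPM.

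Along the axis genes themselves, *Kdr* gave the widest range of *Cdh1*. At E7.5, *Cdh1* was positive in 74.9% of 513 cells below 10 CPM of *Kdr*, 43.3% of 90 cells from 10 to 100 CPM and 2.83% of 353 cells above. *Cldn6* went from 68.0% to 33.3% and 1.70%, and *Epcam* from 79.0% to 55.6% and 32.6%. *Vim* ran the other way, with 45.6%, 60% and 86.97% positive. Along *Mesp1*, the share positive for *Snai1* was 32.8% below 10 CPM, 76.7% from 10 to 100 CPM and 93.7% above, and *Cdh1* went from 51.0% to 37.2% and 28.6%. Along *T*, *Cdh1* positivity did not decline: it was 39.3%, 48.8% and 56.4%, while *Cdh2* was 38.5%, 74.7% and 79.7% and *Snai1* 35.1%, 55.3% and 75.1%. Along *Pou5f1* the middle bin had the lowest *Cdh1* and the highest *Cdh2*, with *Cdh1* in 29.6%, 17.7% and 73.5% of cells and *Cdh2* in 35.4%, 93.9% and 65.8%.

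Within plates the *Kdr* relation had 1 direction for the epithelial members. *Cdh1*, *Epcam* and *Cldn6* were lower in *Kdr*-positive than in *Kdr*-negative cells on 10 of 10 E7.5 plates with both (median log2 ratios -3.42, -2.40 and -3.26) and on 3 of 3 E8.5 plates (-2.50, -2.79 and -3.10). *Vim* and *Zeb1* were higher on 10 of 10 E7.5 plates, with medians of 1.499 and 1.55. *Cdh2* was higher on 8 of 10. On the E8.5 plates *Cdh2* was higher on 1 of 3 plates (median -0.31), *Vim* and *Zeb1* on 2 of 3, and *Snai1* and *Zeb2* on 0 of 3, from 8 of 10 each at E7.5. The *Kdr* class proper, without *Mesp1* or *T*, lacked both cadherins in many cells. When pooled, 56.7% of its 201 cells had neither at E7.5, and 66.9% of 323 at E8.5. On plates with at least 5 cells of the class, the share ran from 0 to 97.6% at E7.5 (median 51.5%). At E8.5 it ran from 20 to 97.3% (median 46.7%). A sum of 8 endothelial markers had a median of 1143 CPM in this class at E7.5 and 1687 CPM at E8.5. That sum includes *Kdr*, which defines the class. Vascular endothelium adheres through another cadherin, *Cdh5*, which belongs to that list. Its *Vim* was 362 CPM at E7.5 and 1092 CPM at E8.5, and its *Zeb1* 45.8 and 60.7 CPM.

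Read by cadherin state rather than by class, *Epcam* and *Cldn6* followed *Cdh1*. At E7.5 *Cldn6* was 679 CPM in cells with *Cdh1* alone, 526 CPM with both and 2.92 CPM with *Cdh2* alone, and *Epcam* was 516, 372 and 25.02 CPM. Cells with both cadherins thus kept most of the epithelial level. *Snai1* in the same order was 18.1, 64.3 and 84.4 CPM, *Zeb2* 7.14, 25.1 and 66.2 CPM and *Zeb1* 0.942, 4.30 and 22.8 CPM. In the 187 cells with neither cadherin *Snai1* was 5.09 CPM, while *Zeb1* and *Zeb2* were 40.3 and 92.5 CPM and *Vim* 260 CPM. The Zeb genes and *Vim* were thus high in these pooled cells while *Snai1* was low. Lane plates 1, 2 and 3 held most of these cells, at 87, 50 and 20. Embryos 1, 2, 4 and 5 held 4, 0, 1 and 4. Haemoglobin genes took 5.22% of reads on lane plate 1. Median reads per cell were 603562, 697595, 796983 and 905853 in the 4 states from *Cdh1* alone to neither. The cells with neither were the most deeply sequenced by this median at E7.5, but depth was not separated from plate. Lane plates 1, 2 and 3 had medians of 1112485, 639949 and 1699478 reads. At E8.5 the medians of the states, in the same order, were 889520, 483060, 532819 and 563148 reads.

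Between stages, *Cdh1* and *Epcam* had lower and *Vim* and *Snai2* higher pooled values at E8.5, but the plates of both stages overlapped for each member. Pooled *Cdh1* was 122 CPM at E7.5 and 30.1 CPM at E8.5 (log2 ratio -1.98 with 1 CPM added, SD between plates 2.74). Its E7.5 plates ranged from 0.143 to 397 CPM with a median of 155, and its E8.5 plates from 0.0233 to 71.6 CPM with a median of 7.23. *Vim* was 154 and 540 CPM (1.80, SD 1.95), with plate medians of 96.1 and 291 CPM. Of the 9887 genes that reached 10 CPM at E7.5 or E8.5 when pooled, 39 (0.394%) were above on every E8.5 plate and 142 (1.44%) below on every one, and 0 of the 10 members were separated in this way. *Cldn6* was 223 and 214 CPM when pooled (-0.06), while its plate medians were 278 and 60.9 CPM. *Zeb2* was 54.3 and 52.3 CPM, with plate medians of 41.7 and 46.9 CPM. *Snai1* was 48.9 and 21.1 CPM, *Cdh2* 114 and 66.0 CPM, *Snai2* 3.57 and 18.2 CPM (2.07, SD 1.77), *Zeb1* 19.7 and 36.6 CPM, and *Twist1* 5.35 and 4.91 CPM, below the minimum. No test was made, since E8.5 plates name no animal and count as 1 sample, and the gate of each plate is not in the labels.

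**Figure D5:**
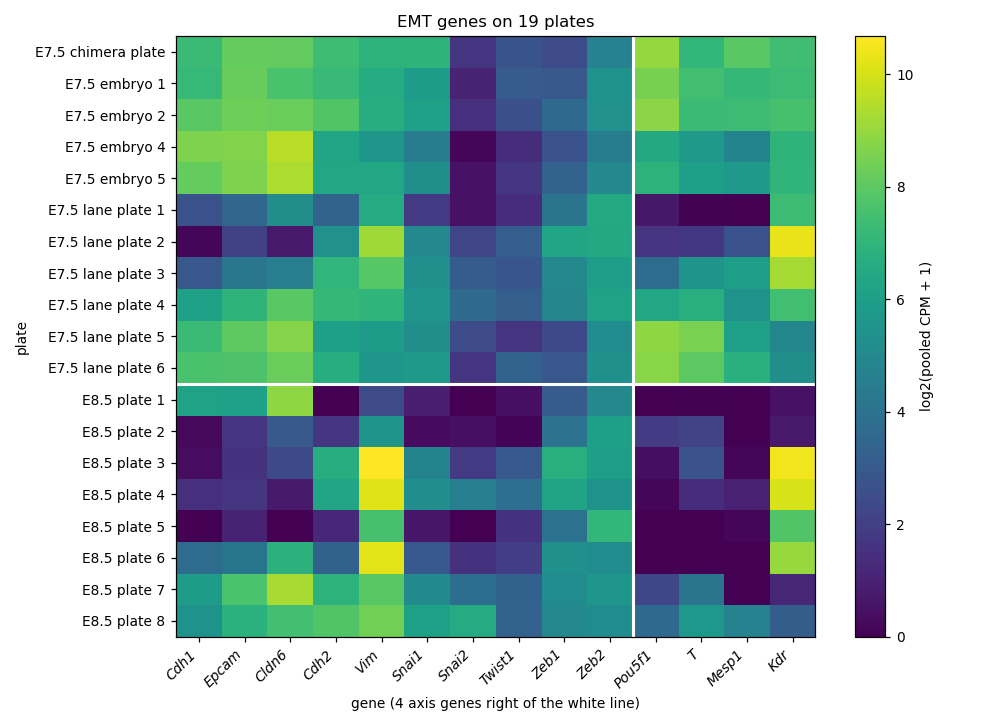
Pooled level of each member on each of 19 plates, as log2(CPM + 1), with E7.5 and E8.5 marked. Plates differed widely within a stage: *Cdh1* spanned 0.143 to 397 CPM at E7.5 and *Snai2* 0 to 95.6 CPM at E8.5.

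Single plates made up much of the E8.5 levels. On E8.5 plate 1, 18 cells with *Cdh1* had *Cldn6* at 2044 CPM and *Epcam* at 299 CPM, and their sum of 12 endoderm markers had a median of 52916 CPM. The other 74 cells of that plate had a median of 22.2% of reads on haemoglobin genes, with *Cdh1* at 0.2 CPM and *Vim* at 0.1 CPM. Plate 7 held 21 cells with *Cdh1* alone (*Cldn6* 1742 CPM, *Zeb1* 0 CPM) beside 53 with *Cdh2* alone (*Zeb1* 58.3 CPM, *Zeb2* 74.2 CPM, *Snai1* 40.7 CPM). *Snai2*, a factor also active in neural crest and later mesenchyme, was highest on plate 8 at 95.6 CPM. There its level was 351 CPM in 14 cells with neither cadherin, 92.9% of them positive, and their *Vim* was 696 CPM. Over all E8.5 cells, *Snai1* was 8.80 CPM in the 56 cells with *Cdh1* alone and 54.7 CPM in the 212 with *Cdh2* alone, and *Zeb1* was 0.738 and 63.8 CPM.

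As a description over 19 plates, whose points share cells of both kinds and differ in gate and depth, *Cdh1* varied with *Epcam* (Spearman's rho 0.958) and *Cldn6* (0.900) and less with *Cdh2* (0.437). Among 12249 genes, those most like *Cdh1* were *Emb* (0.965), *Klf9* (0.965) and *Rbm47* (0.960). Those most like *Epcam* were *Esrp1* (0.982), an epithelial splicing regulator, *Ap1m2* (0.968), a sorting adaptor of epithelia, and *Klf9* (0.963). *Cldn6* was most like *Mpzl2* (0.956), *St14* (0.944), a membrane protease, and *Cldn7* (0.940). *Snai1* was most like *Pcolce2* (0.939), *Evx1os* (0.932, an antisense RNA whose reads cannot be told from those of its partner without strand) and *Ptk7* (0.932). *Cdh2* ran closest to *Nfatc4* and *Ncam1* (both 0.928), and *Vim* to *Plekho1* (0.954).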

How the data were processed

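RNA was measured by Smart-seq2 in single cells of *Tet* TKO chimaeras. The values the authors deposited are raw counts, not normalized. Per the labels and methods, reads (75 bases, single-end) were aligned to GRCm38 with HISAT2 2.1.0 and counted with featureCounts on Ensembl release 87. Strand and multi-mapping settings were not given in the sources used here, so overlapping and antisense genes are uncertain. Symbols, exon lengths and positions came from GENCODE M21 on the same build. Of the identifiers 55141 matched, and the others held 0.012% of reads. There were 0 columns without a sample.

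Members, lists, classes and tests were chosen with earlier results of these data known. Named genes were the members, the axis genes, up to 3 called genes with the largest rise and 3 with the largest fall per list, and the 3 genes most like selected members over plates. *Grb7*, the subsets of the *Mesp1* and *T* classes and the E8.5 plates described were chosen after their values were seen. Wells under 100000 reads (175) were left out. The study sorted singlets, no doublet caller was run, and leaving out the top 2% of cells by reads was tried after seeing the data. No 2 cells used had identical counts.

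Reads of at least 5 cells were summed per embryo and class, 12 sums in all, scaled by TMM (factors 0.913 to 1.067) and tested with edgeR 4.0.16 in R 4.3.3, with Benjamini-Hochberg adjustment over 17810 genes (common biological coefficient of variation 0.69). Same-numbered sums came from the same embryo, so embryo was a block, and their deviations correlated at 0.045 to 0.184 over 14150 genes. Alternatives included DESeq2 1.42.0. Intervals and the exact tests were computed with scipy 1.17.1. Without molecular identifiers, intervals cover counting error only. The scripts were tested on simulated data.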

Additional observations from a re-analysis of the deposited data

Results flagged for a closer look

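Over the 4 named embryos, 47 levels were compared, and in 5 of them embryo 5 stood apart from the others by Dixon's test, where chance alone gives about 1 in 20. In the *Pou5f1* class of embryo 5, which held 5 cells, *Cdh2* was 130.7 CPM (next embryo 24.33, lowest 16.08), *Snai1* 26.25 CPM (next 4.867), *Snai2* 5.047 CPM (next 0.5144) and *Zeb2* 30.28 CPM (next 5.996). In the *Mesp1* class of embryo 5, *Zeb2* was 106.3 CPM (next 68.46, lowest 62.55).

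The wells under 100000 reads, 175 in number, entered no comparison. Of the 10 members, 10 had more than 3 reads there, from 40 reads of *Twist1* to 1951 of *Vim* among 4574048 reads.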

How the results depend on the processing

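Of the member differences recomputed, the direction and the call were kept in 130 of 149 for *Mesp1* against *Pou5f1*, 141 of 158 for *Mesp1* against *T* and 146 of 149 for *T* against *Pou5f1*. Members that stayed uncalled count as kept here. Among called members, *Mesp1* against *Pou5f1* kept *Cdh1* and *Cldn6* in 15 of 15 settings, *Epcam* in 14 and *Snai1* in 10. *Mesp1* against *T* kept *Cdh1* in 12 of 16, *Epcam* in 9 and *Cldn6* in 14. Call numbers depended far more on the setting, and the cause was not tested. For *Mesp1* against *Pou5f1*, 48 genes were higher and 98 lower, and these became 436 and 592 with DESeq2, 128 and 185 with no filter on low counts, 23 and 46 with a positive cell at any read, 108 and 167 with cells thinned to 100000 reads and 197 and 281 at a 5% false discovery rate with no minimum fold. For *T* against *Pou5f1*, 2 higher and 0 lower became 208 and 112 with DESeq2, 16 and 5 with no filter, 13 and 8 thinned and 10 and 4 at 5%. There were 4 higher without the embryo block, at a positive cell of 50 CPM and in cells of at least 200000 reads. For *Mesp1* against *T*, 1 higher and 5 lower became 164 and 398 with DESeq2, 24 and 76 with no filter, 4 and 19 without the embryo block, 0 and 0 at any read, 3 and 9 at 200000 reads, 12 and 29 thinned, 13 and 66 at 5%, 4 higher without cells of extraembryonic ectoderm or endoderm markers and 2 lower at 50 CPM. Without the block, *Snai1* in *Mesp1* against *Pou5f1* had an adjusted p of 0.0127.

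Leaving out 1 embryo left 3 to 38 higher and 4 to 38 lower for *Mesp1* against *Pou5f1*, fewest without embryo 1 (32 lower without embryo 4), 1 to 4 higher and 0 lower for *T* against *Pou5f1*, and 1 higher and 0 to 2 lower for *Mesp1* against *T*. The cadherin balance difference ranged from -4.368 to -3.724, -1.512 to -0.4966 and -3.227 to -2.856 for the same comparisons. Leaving out 1 plate gave 39 to 103 genes above and 142 to 196 below at E8.5. It gave 55.79 to 63.55% of *Pou5f1* cells with *Cdh1* alone, 34.94 to 41.71% of *T* cells with both, 63.93 to 70.29% of *Mesp1* cells with *Cdh2* alone, 21.97 to 26.23% with both, and 45.91 to 59.34% (E7.5) and 57.66 to 74.3% (E8.5, 72.58% without plate 3 and 61.16% without plate 6) of *Kdr* cells with neither.

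With a cell positive at any read, these shares were 49.57, 49.74, 58.91, 34.91, 45.27 and 57.28%. At 50 CPM the share with *Cdh1* alone was 82.05%, *T* with both 23.32%, *Mesp1* with both 13.09% and *Kdr* with neither 70.15 and 74.3%. Without cells of extraembryonic ectoderm or endoderm markers, *T* with both was 28.17%, *Mesp1* with *Cdh2* alone 74.03% and *Kdr* with neither 65 and 84.42%. Directions turned for *Snai2* in *Mesp1* against *Pou5f1* (-0.298 without the block), for *Snai2* in *T* against *Pou5f1* (from -0.815 to 1.365 without embryo 5, 0.651 at any read and 2.905 at 200000 reads) and for *Vim* in *Mesp1* against *T* (-0.392 without the marker cells). The depth limits *Snai2*, *Twist1* and *Zeb1* in *Pou5f1* cells, with few reads per embryo.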
